A study of Mus musculus with 8 samples.

Results

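The KLF transcription factors are a family of DNA-binding proteins that carry zinc fingers at their C terminus and recognise GC-rich sequences and CACCC boxes. The 7 members described here, Klf2, Klf3, Klf4, Klf6, Klf7, Klf10 and Klf13, were taken by gene symbol from an expression table of 48709 genes, together with the 29 introns that carry their names among 204362 introns common to 8 intron tables. In mouse, Klf4 is known for its part in forming Ly6Chi monocytes and Klf2 for keeping lymphocytes and myeloid cells quiescent. Klf6 and Klf7 belong to the same activating branch of the family. Klf3 represses through the corepressor CtBP, and Klf10 and Klf13 repress through the Sin3a complex.

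The data are 8 polyadenylated RNA libraries made from cells of mouse bone marrow. They hold MDP (wild type, 1 library), cMoP (floxed control, 2 libraries), Ly6Chi monocytes with a knockout of Upf2 (2 libraries), control Ly6Chi monocytes (floxed, 2 libraries) and Ly6Clo monocytes (wild type, 1 library). All groups are given as untreated apart from the knockout, and MDP and Ly6Clo are not described as floxed. Where MDP or Ly6Clo is compared with a floxed group, stage and genotype cannot be told apart. MDP and cMoP are the monocyte-dendritic cell progenitor and the common monocyte progenitor, Ly6Chi monocytes have abundant Ly6C on their surface and Ly6Clo monocytes have little, and Upf2 is a core factor of nonsense-mediated decay, the pathway that degrades RNA with premature stop codons. The labels also carry a cell line tag that conflicts with their bone marrow source, do not name the Cre driver of the knockout, and do not give separate animals for the replicates. The p-values therefore measure the spread between these samples, which may be technical. In bulk RNA, fewer cells of a type and less RNA per cell cannot be told apart.

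Spliced reads over the listed introns numbered 28925018 to 37833159 per library. The lean of spliced reads to the 3′ end, given as the median log2 ratio of late to early introns over 5183 genes, measured 0.18 for MDP, 0.40 and 0.67 for cMoP replicates 1 and 2, 0.16 and 0.21 for control Ly6Chi, 0.18 for Ly6Clo and 0.62 and 0.40 for the knockout. The targeted gene Upf2 stood at 20.4 and 22.5 TPM, a length-scaled share of all transcripts, in knockout cells, against 20.2 and 18.2 TPM in controls, while reads spliced from its exon 2 to exon 3 numbered 10 and 13 in knockout cells, against 41 and 45 in controls. They numbered 59 for MDP, 38 and 16 for cMoP and 39 for Ly6Clo, so cMoP replicate 2, which leans most to the 3′ end, lay near the knockout libraries. Defining markers were present in the labelled cells. Flt3 stood at 197 TPM in MDP and at most 10.3 TPM elsewhere, Elane at 5617 and 4842 TPM in cMoP and Ace at 1164 TPM in Ly6Clo. The listed cMoP markers Ms4a3 and Mpo were also highest in cMoP. Kit and Csf1r, listed for cMoP as well, were not. Kit was higher in MDP (60.5 TPM) than in cMoP (49.95 and 31.0 TPM). Csf1r was higher in monocytes (403 to 1629 TPM) than in cMoP (169 and 89.9 TPM). Ly6c2 stood at 3439 to 4817 TPM in the 4 Ly6Chi libraries, but also at 4875 and 3518 TPM in cMoP. Fn1 stood at 1957 to 3061 TPM in the Ly6Chi libraries, against 15.6 and 6.09 TPM in cMoP. The listed MDP markers Cx3cr1 and Csf1r were higher in Ly6Clo (605 and 1629 TPM) than in MDP (48.6 and 163 TPM). Of other cell types, the 8 neutrophil markers summed to 1269 TPM in Ly6Clo and to between 22.7 and 458 TPM in the other 7 libraries. The 6 macrophage markers summed to 964 TPM in Ly6Clo, and to at most 137 TPM elsewhere. The 7 erythroid markers ranged from 3.38 TPM (cMoP replicate 2) to 311 TPM (Ly6Clo), the 6 B cell markers from 12.8 to 49.1 TPM, the 6 dendritic cell markers from 91.9 to 290 TPM and the 4 endothelial markers from 6.33 to 103 TPM, with no listed gene at 0 in all libraries. The 7 T and NK cell markers summed to at most 3.52 TPM in any library.

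Sequences of the RNA joins and upstream regions on which the results below turn are shown here, since they mark where the introns and starts lie. The 3 coding joins come from GENCODE M21 (GRCm38), with 30 bases of the upstream exon in lower case and 30 bases of the downstream exon in capitals. The Klf2 joins replace introns 1 and 2, and the Klf13 join is that of the main transcript Klf13-201, whose capital-lettered exon is also the one that the alternative first exon is spliced to.
Klf2 exon 1 to exon 2 (chr8:72319120-72319149 and chr8:72319426-72319455, plus strand): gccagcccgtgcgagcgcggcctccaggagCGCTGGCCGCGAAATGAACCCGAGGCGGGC
Klf2 exon 2 to exon 3 (chr8:72320213-72320242 and chr8:72320744-72320773, plus strand): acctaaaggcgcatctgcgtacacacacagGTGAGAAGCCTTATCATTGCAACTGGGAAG
Klf13 exon 1 to exon 2 (chr7:63937967-63937996 and chr7:63891768-63891797, minus strand): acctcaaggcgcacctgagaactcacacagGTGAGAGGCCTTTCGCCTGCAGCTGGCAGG
The join into exon 3 of Klf3-207, a transcript that GENCODE annotates as a target of nonsense-mediated decay, is shown with its stop codon in capitals.
Klf3 exon 2 to exon 3 of Klf3-207 (chr5:64823000-64823029 and chr5:64826804-64826810, plus strand): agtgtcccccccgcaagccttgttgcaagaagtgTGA

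Promoters were matched by symbol to RefSeq's GRCm38.p6 table of 300 bases per gene (250 before and 50 after the start), in which 6 of the 7 members are listed and Klf10 is not. The parts upstream of the annotated starts are shown for Klf2 and Klf4, the members that differed most between MDP and Ly6Chi. Capitals mark matches to GGGCGG on either strand.
Klf2 (chr8:72318812-72319032, plus strand): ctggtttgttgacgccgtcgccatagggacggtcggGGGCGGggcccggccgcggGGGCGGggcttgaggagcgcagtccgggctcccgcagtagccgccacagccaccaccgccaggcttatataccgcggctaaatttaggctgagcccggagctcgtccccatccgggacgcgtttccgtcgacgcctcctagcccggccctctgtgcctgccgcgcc
Klf4 (chr4:55532476-55532725, minus strand): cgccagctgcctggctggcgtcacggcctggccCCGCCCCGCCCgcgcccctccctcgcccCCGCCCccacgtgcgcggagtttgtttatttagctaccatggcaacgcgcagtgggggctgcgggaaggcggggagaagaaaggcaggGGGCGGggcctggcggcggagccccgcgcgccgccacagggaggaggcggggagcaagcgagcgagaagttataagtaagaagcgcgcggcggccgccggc
On both strands, GGGCGG was found in 6 of 6 member windows and in 35.7% of 32851 promoters. CACCC was found in 4 of 6 (Klf2, Klf3, Klf7 and Klf13) and in 57.5% of all promoters. TGACGTCA and TATAAA were found in 0 of 6, and in 1.79% and 13.6% of all promoters. The member windows held between 58.3% (Klf7) and 76.7% (Klf3) of G and C, above the median of 52.7% over all promoters. These matches describe letters, not bound sites.

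In GRCm38, Klf2 (ENSMUSG00000055148) lies at chr8:72319033-72321656 on the plus strand, Klf3 (ENSMUSG00000029178) at chr5:64803388-64832901 on the plus strand and Klf4 (ENSMUSG00000003032) at chr4:55527143-55532466 on the minus strand. Klf6 (ENSMUSG00000000078) lies at chr13:5861482-5870394 on the plus strand, Klf7 (ENSMUSG00000025959) at chr1:64029447-64122282 on the minus strand, Klf10 (ENSMUSG00000037465) at chr15:38291463-38300706 on the minus strand and Klf13 (ENSMUSG00000052040) at chr7:63886351-63938915 on the minus strand.

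The 7 genes differed widely in level. Together they made up 88.6 TPM of the MDP library, 271 and 112 TPM of cMoP, 843 and 911 TPM of control Ly6Chi and 1263 TPM of Ly6Clo. In MDP, Klf13 was highest at 23.1 TPM and Klf7 lowest at 2.79 TPM. Klf4 led in cMoP and in control Ly6Chi, and Klf2 led in Ly6Clo. Klf7 was the lowest member in every group. TPM is scaled to transcript length, so these levels can be set beside each other, but MDP and Ly6Clo rest on 1 library each. Across the 4 control stages, 6 of the 7 members varied by limma's F test on log2(TPM + 1), in which 63% of the 13126 genes tested passed. Klf7 did not (adjusted p = 0.0729). The F test's call for Klf6 (adjusted p = 0.0344) was lost without either control Ly6Chi library (adjusted p = 0.0828 and 0.105 without replicates 1 and 2) and without either knockout library (0.0673 and 0.0668), with no filter on low values (0.124) and with only the control stages in the fit (0.0669). Klf2 was lost with no filter (0.0688). Klf7 was called with quantile normalisation (0.0399) and without cMoP replicate 1 (0.0102) or 2 (0.0462).

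**Figure D1:**
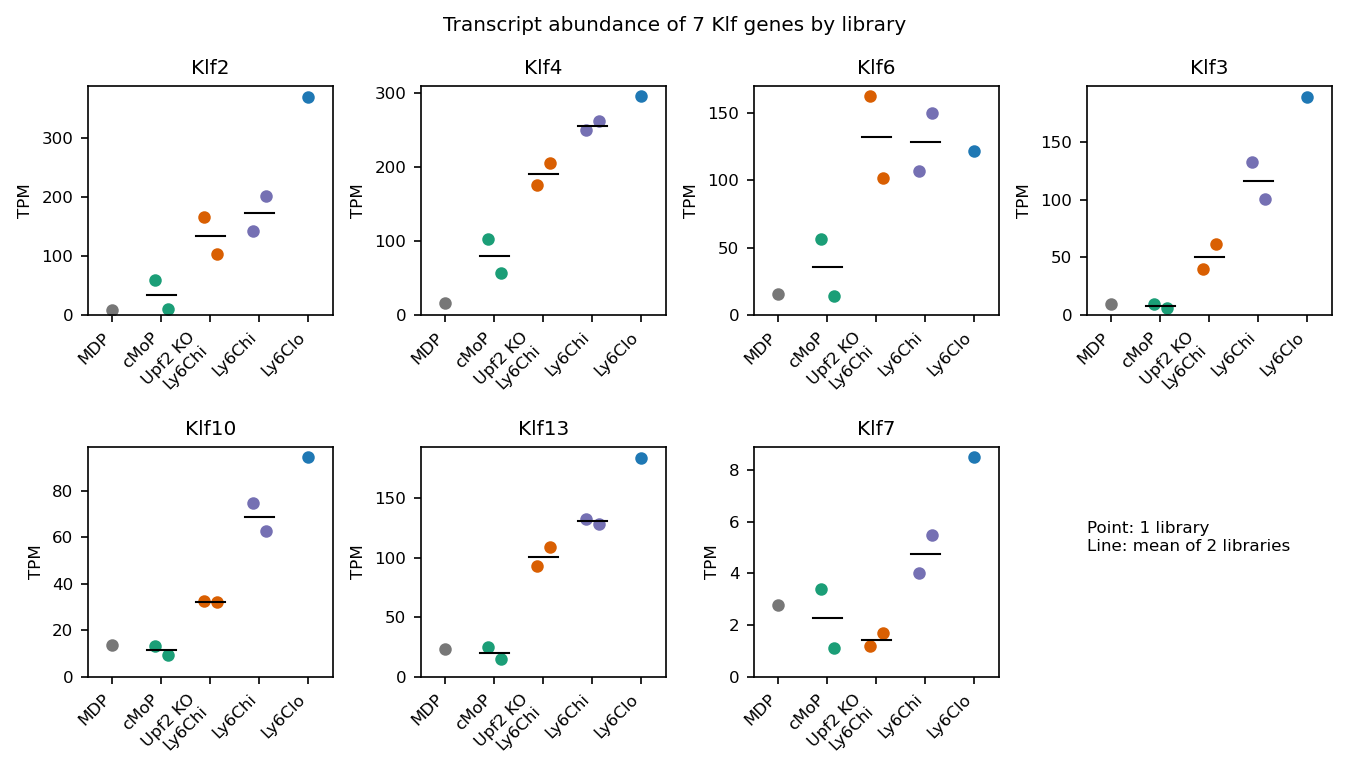
TPM (linear axes from 0, a separate scale per gene) of 7 Klf genes in each library, in the order MDP, cMoP, Upf2 knockout Ly6Chi, control Ly6Chi and Ly6Clo. Points are libraries and lines are means of 2 libraries; Klf2 spans 7.87 TPM in MDP to 370 TPM in Ly6Clo, while Klf7 stays at or under 8.51 TPM.

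In cMoP against MDP, the step that commits progenitors to the monocyte line, Klf4 was the only member called. It stood at 103 and 56.3 TPM in cMoP, against 15.8 TPM in MDP. Both cMoP libraries lay above MDP, with means 5.06-fold apart and a log2 change of 2.20 ± 0.35 (SE) in limma's test (adjusted p = 0.0325). Log2 changes here are of TPM + 1, which understates those of low genes such as Klf7, and adjusted p-values cover all genes tested, with 0.05 as the threshold. In the background, 1.35% of the genes tested were called higher and 2.52% lower, and the median gene stood at a log2 change of −0.28. With libraries centred on their median gene, 408 genes were called higher and 295 lower, against 177 and 331 without centring. Klf2 stood at 59.5 and 10.2 TPM in cMoP, against 7.87 TPM in MDP, with a log2 change of 1.56 ± 0.93 and an adjusted p of 0.312. The cMoP libraries differed 5.82-fold from each other, which is wider than the gap to MDP in replicate 2. Klf6 was also uneven, 3.94-fold between the cMoP libraries, at 56.7 and 14.4 TPM in cMoP, against 15.8 TPM in MDP. The repressor genes Klf3, Klf10 and Klf13 and the low gene Klf7 had log2 changes between −0.31 and −0.24, smaller than their errors or close to them. Centred on the median gene, these 4 values turned to between 0.07 and 0.14. The call for Klf4 was lost without control Ly6Chi replicate 1 or 2 (adjusted p = 0.101 each), without knockout replicate 1 or 2 (0.103 and 0.102), with no filter on low values (0.0547) and with MDP and cMoP alone in the fit (0.287). Without cMoP replicate 1, Klf13 was called lower (−0.61, adjusted p = 0.0386), and without cMoP replicate 2, Klf2 was called higher (2.77, adjusted p = 0.0449). In these settings 3853 of all genes were called lower and 360 higher, against 331 and 177 with all libraries.

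In Ly6Chi against cMoP, the step at which precursors stop dividing and become monocytes, 6 of the 7 members rose and 0 fell. In the background, 32.3% of genes were called higher and 23.3% lower, and the median gene stood at 0.19. With median centring 3354 genes were called higher and 4462 lower, against 4235 and 3053 without it, and 6 members stayed called higher. The members' median log2 change was 2.51. The CtBP-dependent repressor gene Klf3 changed most. It stood at 133 and 100 TPM in Ly6Chi, against 9.77 and 6.13 TPM in cMoP. The groups were far apart, with means 14.7-fold apart and a log2 change of 3.73 ± 0.30 (adjusted p = 0.000533, limma). Klf13, a zinc finger factor known in mouse and human T cells for acting on the chemokine gene Ccl5, stood at 132 and 128 TPM in Ly6Chi, against 24.5 and 14.8 TPM in cMoP. Its log2 change was 2.71 ± 0.24 (adjusted p = 0.000725). Klf10, named for its early induction by TGF-beta, stood at 74.7 and 62.9 TPM in Ly6Chi, against 13.4 and 9.40 TPM in cMoP. Its log2 change was 2.51 ± 0.20 (adjusted p = 0.000507). Klf4 stood at 250 and 262 TPM in Ly6Chi, against 103 and 56.3 TPM in cMoP, a log2 change of 1.73 ± 0.28 (adjusted p = 0.00444). These 4 genes were called in each of the 13 alternatives.

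Klf2 and Klf6 rose as well, with wider spread. Klf2 stood at 143 and 201 TPM in Ly6Chi, against 59.5 and 10.2 TPM in cMoP, a log2 change of 2.71 ± 0.76 (adjusted p = 0.0272, limma). Klf6, an activator induced by injury and growth signals, stood at 107 and 150 TPM in Ly6Chi, against 56.7 and 14.4 TPM in cMoP, a log2 change of 2.10 ± 0.62 (adjusted p = 0.0318). For both genes the Ly6Chi libraries lay above both cMoP libraries, and the size of the change turned on the cMoP library used. Without cMoP replicate 1 the log2 change was 3.93 for Klf2 and 3.05 for Klf6, and without cMoP replicate 2 it was 1.495 for Klf2 and 1.14 for Klf6 (adjusted p = 0.0314 and 0.06). Without control Ly6Chi replicate 1 or 2, adjusted p was 0.0827 and 0.116 for Klf2 and 0.0864 and 0.135 for Klf6. Without knockout replicate 1 or 2, it was 0.0514 and 0.0511 for Klf2 and 0.0559 and 0.0557 for Klf6. With no filter on low values, adjusted p was 0.111 for Klf2 and 0.122 for Klf6, and with only the groups compared it was 0.05 and 0.0544. Klf7 stood at 4.01 and 5.49 TPM in Ly6Chi, against 3.41 and 1.11 TPM in cMoP, and did not pass (0.90 ± 0.38, adjusted p = 0.0879), though it did without cMoP replicate 1 (1.43, adjusted p = 0.00871), where 5510 of all genes were called higher, against 4235 with all libraries.

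Against MDP, which leans to the 3′ end about as little as control Ly6Chi (0.18 in MDP; 0.16 and 0.21 in Ly6Chi), the same test called 6 of 7 members higher in Ly6Chi and 0 lower. In the background 18.2% of genes were called higher and 25.6% lower. Means were 21.9-fold apart for Klf2, 16.2-fold for Klf4, 11.9-fold for Klf3, 8.12-fold for Klf6, 5.65-fold for Klf13 and 5.12-fold for Klf10. Klf7 differed 1.70-fold and was not called (adjusted p = 0.345). MDP is 1 library, and this comparison shares its Ly6Chi libraries with the others. The call for Klf6 was lost without control Ly6Chi replicate 1 or 2 (adjusted p = 0.068 and 0.101) or knockout replicate 1 or 2 (0.0507 and 0.0504), and that for Klf2 without control Ly6Chi replicate 2 (0.0654). With no filter on low values both were lost (0.0909 for Klf6 and 0.0624 for Klf2).

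**Figure D2:**
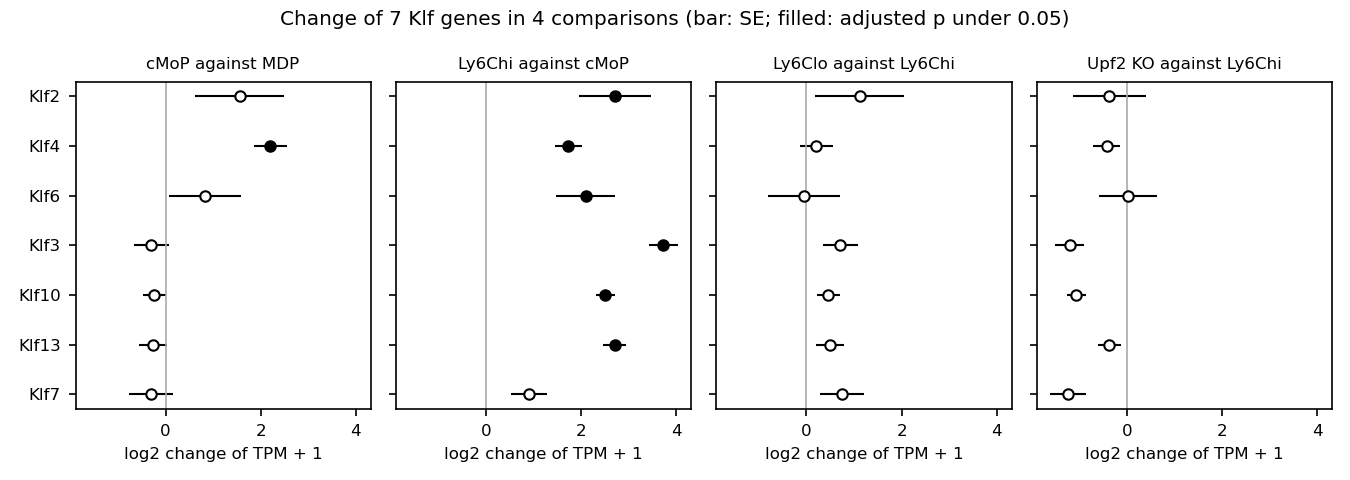
Log2 change of TPM + 1 (horizontal axis) of 7 Klf genes in 4 comparisons, with bars for SE; filled points passed limma's test at an adjusted p under 0.05. In Ly6Chi against cMoP 6 of 7 points are filled, in cMoP against MDP only Klf4, and in the other panels none.

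Within each replicated group, Klf2 and Klf6 were higher in the library with the larger sum of immediate early genes. These genes, such as Fos and Dusp1, are switched on within minutes of a stimulus, which can include cell isolation. The 22 listed immediate early genes summed to 2008 TPM in cMoP replicate 1 and 783 TPM in replicate 2, a ratio of 2.57, and the same pair differed 5.82-fold in Klf2 and 3.94-fold in Klf6. In control Ly6Chi, replicate 2 had 5536 TPM and replicate 1 3095 TPM (1.79-fold), beside 1.41-fold for Klf2 and for Klf6. In the knockout, replicate 1 had 4994 TPM and replicate 2 3416 TPM (1.46-fold), beside 1.61-fold for Klf2 and 1.60-fold for Klf6. Klf2 and Klf6 were thus higher in the library with the larger sum in 3 of 3 pairs, Klf4, Klf7 and Klf10 in 2 of 3, and Klf3 and Klf13 in 1 of 3. The share of all genes with this order in 3 of 3 pairs was not counted, so the order alone does not set Klf2 and Klf6 apart. The part of the immediate early response in the differences between groups was not tested. In cMoP the library with the smaller sum, replicate 2, is also the one that leans most to the 3′ end.

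For the conversion to patrolling monocytes, Ly6Clo against Ly6Chi, no member passed limma's test. Background calls were 5.9% of genes higher and 7.12% lower. Klf2 stood at 370 TPM in Ly6Clo, against 143 and 201 TPM in Ly6Chi, with a log2 change of 1.12 ± 0.93 (adjusted p = 0.495). Klf3 stood at 189 TPM in Ly6Clo, against 133 and 100 TPM in Ly6Chi. Klf13 stood at 184 TPM in Ly6Clo, against 132 and 128 TPM in Ly6Chi. For 6 of the 7 genes the single Ly6Clo library lay above both Ly6Chi libraries, as it did for 47% of all genes tested, with means 1.15-fold (Klf4) to 2.15-fold (Klf2) apart. Klf4 stood at 296 TPM, Klf10 at 94.5 TPM and Klf7 at 8.51 TPM in Ly6Clo. Klf6, at 122 TPM in Ly6Clo, lay between the Ly6Chi libraries. With only these 3 libraries in the fit, Klf13 was called higher (0.49, adjusted p = 0.0327), as were 1601 of all genes, against 774 with all libraries. At an unadjusted p under 0.05 no member passed limma's test, and edgeR on spliced reads called none either. The Ly6Clo library also had the largest sums of neutrophil, macrophage and erythroid markers (1269, 964 and 311 TPM, against at most 458, 137 and 188 TPM in Ly6Chi), whose part in these levels was not tested.

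In the Upf2 knockout against control Ly6Chi, no member passed limma's test, in which 1 gene of 13126 (0.00762%) did, and edgeR on spliced reads called no member. The lowest values by log2 change were those of Klf7, Klf3 and Klf10. Klf10 stood at 32.7 and 32.0 TPM in knockout cells, against 74.7 and 62.9 TPM in controls. Its replicates lay close together in both groups, with a log2 change of −1.06 ± 0.20 (adjusted p = 0.336, unadjusted p = 0.0019). Klf3 stood at 39.97 and 61.3 TPM in knockout cells, against 133 and 100 TPM in controls, a log2 change of −1.20 ± 0.30 (adjusted p = 0.336). Klf7 stood at 1.19 and 1.68 TPM in knockout cells, against 4.01 and 5.49 TPM in controls, a log2 change of −1.23 ± 0.38 (adjusted p = 0.336). By edgeR on spliced reads the change of Klf7 was −2.52 (adjusted p = 0.307). These 3 members had an unadjusted p under 0.05, as had 1910 of all genes tested. Klf4 stood at 176 and 206 TPM in knockout cells, against 250 and 262 TPM in controls (−0.43 ± 0.28, adjusted p = 0.458, limma). Klf13 stood at 92.8 and 109 TPM in knockout cells, against 132 and 128 TPM in controls (−0.37 ± 0.24, adjusted p = 0.455). For 5 of the 7 genes both knockout libraries lay below both control libraries, as they did for 45.5% of all genes tested. Klf2 stood at 166 and 103 TPM in knockout cells, against 143 and 201 TPM in controls, and Klf6 at 163 and 102 TPM, against 107 and 150 TPM, so both overlapped. Their log2 changes were −0.37 ± 0.76 and 0.02 ± 0.62. The 3′ lean was 0.62 and 0.40 for knockout libraries, against 0.16 and 0.21 for control libraries, and its part in these values was not tested.

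Introns of the 7 genes were followed by reads that cross an exon-intron boundary (U) relative to spliced reads (S), tested with edgeR's quasi-likelihood method, and described by the deposited retention ratio, the coverage of the intron divided by that coverage plus spliced reads. Of the 29 introns, 17 were tested, 5 in Klf4, 4 in Klf3, 3 each in Klf6 and Klf10 and 2 in Klf2. Another 8, including all 4 of Klf7 and all 3 of Klf13, were left out because they are marked in some or all tables. Intron 1 of Klf7 is marked in every table as overlapping a known exon. The rest are marked in the knockout tables as overlapping or near a gene on the other strand. They are unmarked in the tables of MDP, cMoP and control Ly6Chi. A further 4 of Klf3 had too few reads. Klf3, Klf7 and Klf13 overlap annotated genes on the other strand (Gm20033, Gm26649, Gm13748, Gm27252 and E030018B13Rik), and no source used here says whether counting used strand.

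The introns of Klf2 had lower retention ratios in monocytes than in progenitors. Intron 1 had the highest ratio of the 17 tested introns in every library but Ly6Clo, where introns of Klf4 were higher. Both introns of Klf2 lie within its coding sequence. Intron 1 (chr8:72319150-72319425, 276 bp) had a ratio of 0.558 for MDP, 0.354 and 0.562 for cMoP, 0.167 and 0.229 for control Ly6Chi and 0.0961 for Ly6Clo. Intron 2 (chr8:72320243-72320743, 501 bp) had 0.294 for MDP, 0.168 and 0.300 for cMoP, 0.0728 and 0.0421 for control Ly6Chi and 0.0341 for Ly6Clo. For both introns every monocyte library, the knockout included, lay below every progenitor library, as for 1.27% of all introns tested, and within cMoP the library with less Klf2 RNA, replicate 2, had the higher ratio. The reads behind them were few in MDP and cMoP replicate 2. At intron 1 there were 44 boundary and 29 spliced reads in MDP and 76 and 40 in cMoP replicate 2. For cMoP replicate 1 they numbered 249 boundary and 313 spliced reads, and for Ly6Clo 265 and 1892. At intron 2, boundary reads numbered 37 for MDP, 189 and 56 for cMoP, 98 and 113 for control Ly6Chi and 144 in Ly6Clo. Spliced reads there numbered 47 for MDP, 558 and 87 for cMoP, 1034 and 1677 in control Ly6Chi and 2722 in Ly6Clo.

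By edgeR's test, no member intron was called in Ly6Chi against cMoP, in which 7 of 48132 introns were (0.0145%). For intron 2 the log2 change of U relative to S was −2.49 ± 0.40 (unadjusted p = 6.15e-05, adjusted p = 0.228), and 12 introns had a smaller p. For intron 1 it was −1.71 ± 0.45 (adjusted p = 0.414), beside a median of 0.38 over all introns. With TMM scaling of U and S apart, which moves that median to −0.01, both were called (−2.83, adjusted p = 1.98e-05, and −2.01, adjusted p = 0.0058), as were 115 introns in the lower direction (0.239%). Intron 2 was also called without cMoP replicate 1 (−3.02, adjusted p = 0.000309) or replicate 2 (−2.09, adjusted p = 0.0104), and intron 1 without cMoP replicate 1 (−2.39, adjusted p = 0.00124). Of all introns, 180 were called lower and 6808 higher without cMoP replicate 1, and 20 lower and 15 higher without replicate 2, against 5 and 2 with all libraries. Over all alternatives, the adjusted p of intron 2 ranged between 2.7e-06 and 0.912. The mean retention ratio was 0.0575 ± 0.0217 in Ly6Chi and 0.234 ± 0.0927 in cMoP at intron 2, and 0.198 ± 0.044 and 0.458 ± 0.147 at intron 1 (SD, n = 2 each). The exact two-sided permutation p was 0.333 for both, the smallest that 2 against 2 allows. cMoP replicate 2 had the fewest boundary reads of all libraries, 6.09 per 100 spliced reads, against 8.32 to 11.6 in the others.

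In cMoP against MDP, no intron of any gene was called (0%; 4020 at an unadjusted p under 0.05), and 3 introns of Klf4 had an unadjusted p under 0.05. Klf4 intron 2 (chr4:55530984-55531629, 646 bp) had a ratio of 0.0680 and 0.0348 in cMoP, against 0.111 in MDP. Its log2 change was −1.57 ± 0.57 (adjusted p = 0.597, edgeR), and without cMoP replicate 1 it was called (−2.02, adjusted p = 0.0347), as was the overlapping intron of the form that skips the second exon (−1.78, adjusted p = 0.0475). In that setting 4804 of all introns were called lower and the median intron stood at −0.84. In Ly6Chi the same intron 2 had ratios of 0.114 and 0.0851, against 0.0680 and 0.0348 in cMoP, with a log2 change of 0.84 ± 0.37 (adjusted p = 0.451). Without cMoP replicate 1 it was called in that comparison too (1.30, adjusted p = 0.0207), and so was the overlapping intron (1.17, adjusted p = 0.0475), beside 6808 of all introns called higher and a median of 0.83. Klf4 intron 2 and the Klf2 introns thus had changes of opposite sign in Ly6Chi against cMoP. The overlapping intron shares a boundary and nearly the same S with Klf4 intron 2, so its calls largely repeat the same reads. In cMoP replicate 2, S was 311 for both, while 12 reads were spliced exactly over the overlapping intron. The ends of the members' range in cMoP against MDP, −4.02 and 4.05, belonged to introns of Klf3 with errors of 2.93 and 2.15.

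Klf6 intron 3 (chr13:5866763-5867231, 469 bp, within the coding sequence) followed the direction of Klf2. Its ratio was 0.0837 and 0.0477 in Ly6Chi, against 0.143 and 0.210 in cMoP. Every monocyte library, the knockout included, lay below every progenitor library, as for 1.27% of all introns tested. Klf6 introns 1 and 2 had this order too. So did Klf10 intron 3, by a narrow margin (0.0655 in MDP, against 0.0635 in control Ly6Chi replicate 2). The log2 change of Klf6 intron 3 in Ly6Chi against cMoP was −1.29 ± 0.40 (adjusted p = 0.414, edgeR). It was called with TMM scaling (−1.62, adjusted p = 0.0263) and without cMoP replicate 1 (−1.58, adjusted p = 0.0311), the setting in which 180 introns were called lower. Over the 17 introns, 8 log2 changes were positive and 9 negative in this comparison, with a median of −0.12.

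In Ly6Clo against Ly6Chi no intron of any gene was called (0%; 2391 at an unadjusted p under 0.05). Klf2 intron 1 had a ratio of 0.0961 in Ly6Clo, against 0.167 and 0.229 in Ly6Chi. Its log2 change was −1.32 ± 0.52 (adjusted p = 0.948), and it was called with only these 3 libraries in the fit (−1.35, adjusted p = 0.016) and without cMoP replicate 1 (−1.36, adjusted p = 0.0226). In these settings 89 and 44 of all introns were called lower, and 334 and 164 higher. In the Upf2 knockout against control Ly6Chi, 1 of 48132 introns was called (0.00208%) and none of a member, also at an unadjusted p under 0.05. Klf2 intron 1 had ratios of 0.228 and 0.197 in knockout cells, against 0.167 and 0.229 in controls, and intron 2 had 0.0611 and 0.0674 in the knockout, against 0.0728 and 0.0421. For both introns the groups overlapped. The 17 log2 changes lay between −0.46 and 0.94.

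**Figure D3:**
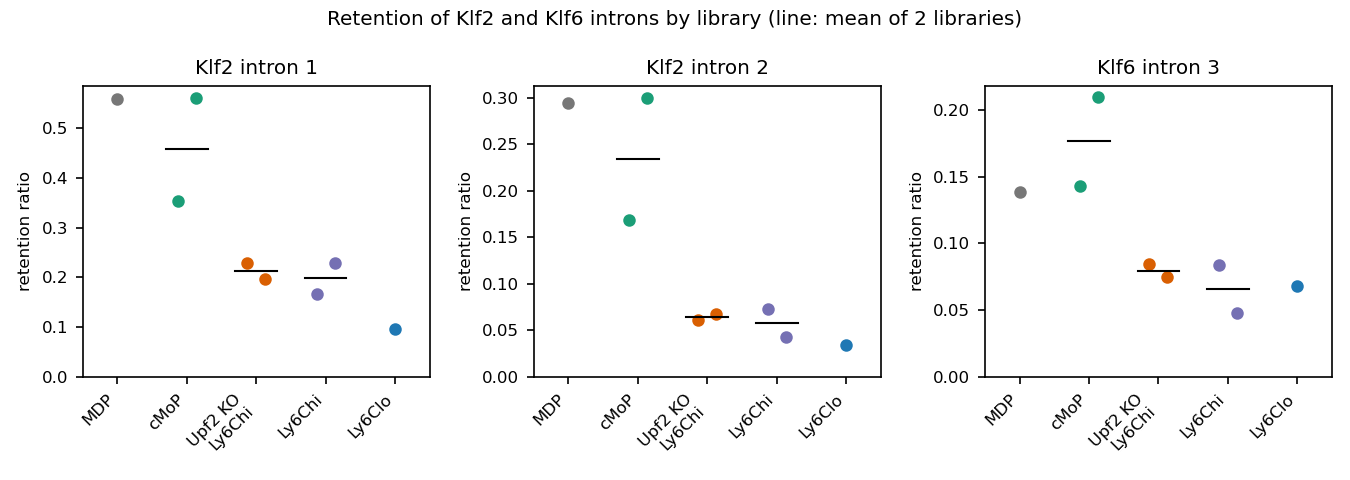
Retention ratio (vertical axis, a fraction) of Klf2 introns 1 and 2 and Klf6 intron 3 by group, in the order MDP, cMoP, Upf2 knockout Ly6Chi, control Ly6Chi and Ly6Clo; points are libraries, lines are means of 2 libraries, and each panel has its own scale from 0. In all 3 panels every monocyte library lies below every MDP and cMoP library, as for 1.27% of all introns tested. Klf6 introns 1 and 2 and Klf10 intron 3, not shown, had the same order.

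Reads spliced between named exons were then compared for 3 alternative exons, which were chosen after their values were seen. The Wilson 95% intervals given with them cover counting error only. How many other exon joins separate the groups in the same way was not counted. Klf13-204 starts at a first exon of 72 bp (chr7:63936230-63936301), with a coding sequence of 156 bp, against 867 bp in Klf13-201, and joins the capital-lettered exon of the Klf13 sequence above. Its share of reads from the 3 listed first exons was 4.35% in MDP (3 of 69 reads, 1.49 to 12.02%), 3.80% and 8.82% in cMoP (3 of 79 and 3 of 34), 20.1% and 22.2% in control Ly6Chi (81 of 402 and 96 of 433) and 38.2% in Ly6Clo (194 of 508, 34.1 to 42.5%). The share was thus higher in each monocyte library than in any progenitor library, on few progenitor reads. In both control Ly6Chi libraries it lay inside the interval of cMoP replicate 2 (3.05 to 22.96%). In Ly6Chi it averaged 21.2 ± 1.43%, against 6.31 ± 3.55% in cMoP (SD, n = 2 each), a difference of 14.8 percentage points with an exact permutation p of 0.333, the smallest possible. In the knockout it was 25.8% and 24.7% (41 of 159 and 70 of 283), against 20.1% and 22.2% in control Ly6Chi, again with an exact p of 0.333.

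The 79 bp exon of Klf3-207 (chr5:64826804-64826882) brings the stop codon shown in capitals in the Klf3 sequence above. Its join to the next exon is also intron 1 of the coding transcript Klf3-206, so reads over that join do not tell the transcripts apart. They made up 6.97% and 5.40% of reads to the next exon in knockout cells (17 of 244 and 19 of 352), against 3.24% and 1.96% in controls (21 of 649 and 12 of 611). Both knockout libraries lay above both control libraries, with means of 6.18 ± 1.11% and 2.60 ± 0.899% (SD, n = 2 each) and an exact permutation p of 0.333, the smallest possible. In Ly6Clo, labelled wild type, the share was 6.34% (55 of 867), within the range of the knockout libraries. It was 12.1% in MDP (4 of 33), 8.82% in cMoP replicate 2 (3 of 34) and 0 of 53 reads in cMoP replicate 1, which allows a share of up to 5.66% as 3 counts of the total (Wilson upper limit 6.76%). Skipping of the second exon of Klf4 (chr4:55531630-55531750, 121 bp) was 6.47% and 3.87% in knockout cells, against 5.01% and 5.54% in controls, and lay between 3.70% and 6.13% in the remaining groups.

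**Figure D4:**
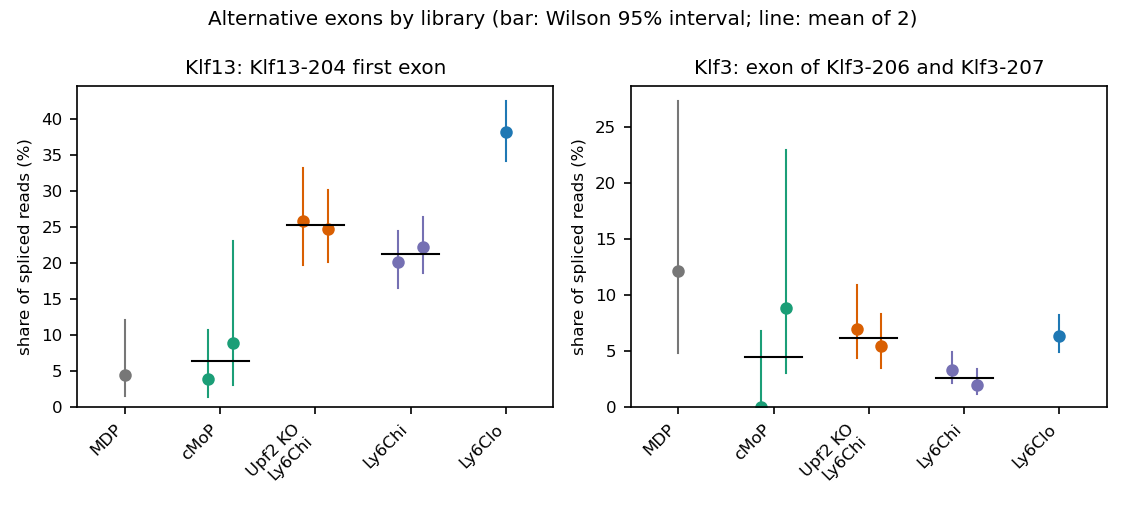
Share of spliced reads (vertical axis, percent) for the Klf13-204 first exon (left) and the Klf3 exon join shared by Klf3-206 and Klf3-207 (right) in each library, groups in the order MDP, cMoP, Upf2 knockout Ly6Chi, control Ly6Chi and Ly6Clo; bars are Wilson 95% intervals and lines are means of 2 libraries. The Klf13-204 share reaches 38.2% in Ly6Clo, and the Klf3 share is 6.97% and 5.40% in knockout cells, against 3.24% and 1.96% in controls.

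Among genes with a mean of at least 10 TPM (8152 candidates), those with a pattern over the 8 libraries closest to each member were found by the root mean square difference of centred log2(TPM + 1). Klf13 had the closest neighbours, Flt3l (0.10), Slc2a6 (0.12) and Sh3bp2 (0.12). Klf4 was closest to Bmx (0.14), Naip2 (0.15) and Csf2ra (0.27), and Klf10 to Mbp (0.17), Trps1 (0.19) and Nat8l (0.23). Klf3 was closest to Bach1 (0.22), Kdm7a (0.23) and Zc3h12d (0.25). Klf7 was closest to Nxpe1-ps (0.24), Rapgef6 (0.27) and Sik2 (0.28). Klf6 was closest to the immediate early genes Dusp1 (0.28) and Zfp36 (0.31), then to Gm38158 (0.34). Klf2 had the most distant neighbours, Polm (0.43), Sat1 (0.48) and Naip5 (0.58). Between members, Klf10 and Klf13 were closest (0.36) and Klf2 and Klf7 farthest apart (1.57).

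Of the 19 other KLF and SP family genes, 8 passed the filter on low values, 11 lay below 1 TPM in every library and 5 of those were at 0 throughout. In Ly6Chi against cMoP, 4 of the 8 rose and 1 fell by limma's test, beside 32.3% and 23.3% of all genes. Among them, Sp3 rose by 1.77 ± 0.29, Sp4 by 1.05 ± 0.34 and Sp1 by 1.01 ± 0.23, all activators or modulators at GC boxes, and Klf16 fell by 0.86 on the log2 scale. Klf9 rose in Ly6Clo against Ly6Chi (1.25 ± 0.27, adjusted p = 0.0353) and Klf8, which Klf3 represses in mouse erythroid cells, fell (−1.55 ± 0.37, adjusted p = 0.0482). Of the 8, 0 were called in cMoP against MDP or in the knockout.

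Of the 22 partners and regulators, all tested, 13 rose and 2 fell in Ly6Chi against cMoP, beside 32.3% and 23.3% of all genes. Their median log2 change was 0.68, beside 0.19 over all genes. The receptor gene Tgfbr2, through which TGF-beta induces Klf10, rose by 3.29 ± 0.27, and Mef2a, a factor upstream of Klf2, by 3.21 ± 0.39. The acetyltransferase genes Ep300 and Kat2b rose by 2.33 ± 0.59 and 1.96 ± 0.38. Only the receptor genes Tgfbr1 (2.15 ± 0.41) and Tgfbr2 (2.01 ± 0.33) were called in Ly6Clo against Ly6Chi, both higher. In that comparison 5.9% of all genes were called higher. None of the 22 was called in cMoP against MDP or in the knockout.

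Of 12 genes described as KLF targets, 11 were tested. In Ly6Chi against cMoP 6 rose and 0 fell, beside 32.3% and 23.3% of all genes. The 6 included the integrin gene Itgb7 (4.08 ± 0.47), Lgals3 (4.002 ± 0.09), the cell cycle inhibitor gene Cdkn1a (1.98 ± 0.43) and Thbd (1.35 ± 0.24). In Ly6Clo against Ly6Chi, Thbd, a Klf2 target in endothelial cells, rose (1.92 ± 0.29, adjusted p = 0.0117, limma), while Lgals3 (−1.58 ± 0.11, adjusted p = 0.00102) and Klf8 fell. S1pr1, a Klf2 target in T cells, stayed at or under 0.57 TPM in every library. In the knockout 0 of 11 were called.

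Of the 20 tested immediate early genes, 7 rose and 2 fell in Ly6Chi against cMoP, beside 32.3% and 23.3% of all genes. Atf3 rose by 5.40 ± 1.13, Nr4a1 by 5.05 ± 0.68 and Ier5 by 3.68 ± 0.29, while Myc fell by 4.04 on the log2 scale. Nr4a1, which Ly6Clo monocytes need, stood at 785 TPM in Ly6Clo, against 97.3 and 193 TPM in Ly6Chi. Of the 20, 0 were called in cMoP against MDP or in the knockout. In Ly6Clo against Ly6Chi Dusp2 alone rose (3.32 ± 0.55), beside 5.9% of all genes.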

How the data were processed

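The submitters' processing notes name FastQC, Trimmomatic, STAR 2.5.2a and RSEM, and list the mouse build mm10 beside a human one. Per the labels' protocols, libraries were polyadenylated, stranded and read in pairs. The expression table, deposited under an FPKM name, holds TPM, since its columns have the same sum to within 1 TPM; the limma test had been planned for FPKM. The deposited intron tables give counts of boundary and spliced reads, depth (a coverage signal) and a retention ratio as a fraction. That fraction was recomputed from the deposited columns within 0.0001 for 94.0 to 96.5% of introns per library. The program behind these tables is not given in the sources used here.

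Expression was tested with limma 3.58.1 (trend) on log2(TPM + 1), all 8 libraries in one fit, over 13126 genes that reached 1 TPM in 2 or more libraries. Introns were tested with edgeR 4.0.16, quasi-likelihood, on U (left plus right boundary reads) against S (the larger spliced count), over 48132 introns unmarked in all tables, where U + S reached 20 in each library and U reached 20 in total. Both fits used Benjamini-Hochberg adjustment at 0.05 and left 3 residual degrees of freedom. The single MDP and Ly6Clo libraries borrow their spread from the replicated groups. Knockout tables mark 37875 introns, against 2968 in the others. Alternatives were another pseudocount, no filter, median centring, quantile normalisation, other sample sets, edgeR on summed spliced reads, DESeq2 1.42.0 on introns and each library left out. The 3′ lean used genes with at least 4 introns and 100 spliced reads in each library. Scripts were tested on simulated data. Members and lists were chosen with earlier results of these data known; from each list at most 4 called genes with the largest log2 change were named per comparison, and 3 nearest genes per member. Spliced reads of Klf2, Klf3, Klf4, Klf6 and Klf10 were fewest in MDP and cMoP replicate 2, which limits their introns most there. Library depth did not follow this order, since the cMoP libraries held the most spliced reads in total (36887070 and 37833159). The result of 1 listed target gene is not reported here.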

Additional observations from a re-analysis of the deposited data

How the results depend on the processing

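In cMoP against MDP, 1 member was called, beside 508 of 13126 genes tested. With no filter on low values 0 members were called, beside 2348 of 25047 genes. With only the groups compared 0 were called, beside 0 of 13126. With 1 library left out the count of members moved, as did the count over all genes. In Ly6Clo against Ly6Chi, 1 was called with only the groups compared, beside 3293 of 13126 genes. Of the introns, 0 were called in each comparison. In Ly6Chi against cMoP 3 were called with TMM scaling, beside 197 of all 48132 introns. DESeq2 called 1 at either size factors, beside 15 introns with size factors of 1 and 26 with size factors apart. The looser filter called 2, beside 349 of 99945 introns. With 1 library left out the count moved, as did the count over all introns. In cMoP against MDP both counts moved with 1 library left out. In Ly6Clo against Ly6Chi 1 was called with only the groups compared, beside 423 of 48132 introns. Both counts moved there too with 1 library left out. The cause was not tested.

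Values that changed sign were log2 changes that passed no test in the main setting. In cMoP against MDP, median centring gave 0.068 for Klf7, 0.076 for Klf3, 0.14 for Klf10 and 0.12 for Klf13, and quantile normalisation 0.21, 0.18, 0.18 and 0.092 in that order. edgeR on spliced reads gave 0.37 for Klf3. With 1 library left out, values ranged over −0.13 to 1.78 for Klf6, −0.84 to 0.22 for Klf7 and −0.61 to 0.086 for Klf13. In Ly6Clo against Ly6Chi that range was −0.30 to 0.19 for Klf6. In the knockout, Klf6 was −0.090 by edgeR on spliced reads and ranged over −0.31 to 0.36 with 1 library left out. Klf2 intron 1 in cMoP against MDP was 0.025 with DESeq2 size factors apart and ranged over −0.93 to 0.32. In the knockout it was −0.031 with the smaller boundary count doubled and ranged over −0.16 to 0.52.

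Same-numbered libraries did not deviate together (r = 0.06 for cMoP and Ly6Chi, −0.14 for knockout and cMoP, −0.13 for knockout and Ly6Chi), so the numbers were not taken as pairs. With the replicate block, 6331 genes were called in Ly6Chi against cMoP, against 7282 in the same fit without it, and 0 against 1 in the knockout; 6 and 0 members were called, as without it. Of all introns 5 were called, against 7, and 1 in the knockout in both fits, with 0 member introns.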
